A study of Mus musculus with 4 samples.

Results

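Basal cells of the adult mouse mammary gland were compared between diestrus and estrus, phases of the ovarian cycle. A cell was called basal when at least 4 of 7 genes of the outer layer (Krt5, Krt17, Acta2, Myl9, Tagln, Mylk and Cnn1) had a count. It could have a count for at most 1 of 5 luminal progenitor genes (Cd14, Lalba, Plb1, Atp6v1b1 and Aldh1a3) and at most 1 of 6 mature luminal genes (Stc2, Upk3a, Plac8, Tspan1, Prlr and Cited1). The rule took 2304 of the 5168 adult cell barcodes, 1021 in diestrus and 1283 in estrus, out of 15996 barcodes in the 4 tables of the series. Luminal cells, with counts for at most 2 of the 7 basal genes, numbered 1347 in diestrus and 1390 in estrus and served as the comparison lineage. The cells came from FVB/NJ female mice at 10 weeks of age, staged by vaginal cytology, with the glands of a pair of mice pooled for each phase. Epithelial cells were sorted as CD24+ cells without the lineage markers Ter119, CD31 and CD45 and captured on a 10x Chromium instrument, which counts the 3' ends of transcripts. Each phase had 1 library, so no difference had a replicate check, and intervals (95%) cover counting error only.

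Basal cells form the outer layer of the ducts. Most are myoepithelial cells, which contract in response to oxytocin and move milk along the ducts, and they lay down the basement membrane. The layer also contains cells with stem cell properties. In the mouse cycle, estrogen surges before ovulation, while progesterone is high in diestrus. Basal cells mostly lack the receptors for both hormones and receive their signals through mature luminal cells. The basal cells measured here had 14 counts of Pgr, the progesterone receptor, in estrus and 15 in diestrus, and 10 and 6 counts of Esr1, the estrogen receptor.

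The basal label was checked with genes that the rule did not use. Krt14, a keratin of the basal layer, was at 7178 counts per 1000000 counts (CPM) in the summed basal cells in estrus and 4207 CPM in diestrus, against 21.2 and 90.4 CPM in luminal cells. Counts for none of Krt5, Krt14 and Krt17 were found in 21 basal cells in estrus and 9 in diestrus. At the edge of the rule, cells with exactly 4 basal genes numbered 45 in estrus and 44 in diestrus, of which 44 and 39 entered the class. A count for Krt14 was present in 60.0% and 77.3% of them. Just outside it, 15 and 24 cells had 3 basal genes, and 33.3% and 58.3% of these had a count for Krt14. Another 41 cells in estrus and 47 in diestrus passed the basal limit but had too many luminal genes, with median totals of 5830 and 5823 counts, and were left out. Luminal genes outside the rule, 14 in all, summed to 1905 and 1491 CPM in basal cells against 28926 and 23309 CPM in luminal cells. The endothelial markers Cdh5, Kdr, Emcn and Cldn5 and the leukocyte markers Ptprc, Cd52, Cd3e and Laptm5 had 0 counts in both basal sums. The 6 immune markers still summed to 7.64 and 38.4 CPM, most of it from Cd74, an MHC class II chaperone (6.48 and 37.6 CPM). The 6 fibroblast markers summed to 309 and 273 CPM, most of it from Dcn (294 and 267 CPM), which was at 298 and 518 CPM in luminal cells. The 9 markers of pericytes and vascular smooth muscle summed to 47.2 CPM in estrus and 15.1 CPM in diestrus, and 10 and 4 basal cells had 3 or more of them. Without those cells the numbers of genes given below stayed within 1.5 times, and 281 genes were at least 2-fold lower.

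The libraries differed in depth, and the share of dividing cells differed between them. Basal cells had a median of 2549 counts and 1184 genes in estrus and of 3416 counts and 1414 genes in diestrus. Luminal cells had medians of 3878 and 4279 counts. For shares of cells with a count, every cell was therefore thinned to 1500 counts, which left out 60 basal cells in estrus and 16 in diestrus. Cells in division were taken as those with counts for 3 or more out of 10 genes of the cell cycle. The 10 genes were Mki67, Top2a, Birc5, Cdk1, Ccnb2, Cenpf, Rrm2, Tyms, Ube2c and Nusap1. Dividing cells with fewer than 3 of them can remain when cycling cells are removed. The call was made without thinning, so deeper cells could pass more easily, and the part of depth in these shares was not tested. Cycling cells were 60 of the 1283 basal cells in estrus (4.68%, exact binomial interval 3.59% to 5.98%) and 199 of 1021 in diestrus (19.5%, 17.1% to 22.1%). The luminal progenitor-like cells had 3.92% and 17.2%, and mature luminal-like cells 8.37% and 10.7%. The libraries shared 13 barcodes. Where the removal of cycling cells ended the call of a named gene, its value without them is given beside it.

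Counts were summed over the basal cells of each phase (4318153 counts in estrus, 4618085 in diestrus), scaled by TMM and given as CPM. TMM sets a scale between libraries from the bulk of the genes. The log2 ratio is that of diestrus to estrus on the log2(CPM + 1) scale, and a gene was called when it changed at least 2-fold. The interval given with a ratio is that of the scaled counts without the added 1 CPM. For genes with few counts it is therefore not centred on the printed ratio. Of 8651 genes with at least 50 counts over both basal sums, 763 were called (8.82%). Of all measured genes, 488 were called higher in diestrus (5.64%) and 275 lower (3.18%). Higher genes thus made up 64.0% of the called genes. With plain totals in place of TMM these numbers were 392 and 440, and higher genes made up 47.1%, since the median ratio of all genes shifted by -0.14. The balance of the directions therefore depended on the scaling. Without cycling cells, 371 of the 488 higher genes and 188 of the 275 lower genes were still called. In luminal cells, 422 of 9477 genes were called higher (4.45%) and 220 lower (2.32%).

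A basal change was taken as not seen in luminal cells when the luminal log2 ratio was between -0.5 and 0.5 on at least 50 luminal counts, or when the luminal level was under 10% of the basal level in both libraries. This held for 115 of the higher genes (1.33% of all measured genes) and 132 of the lower genes (1.53%). Of the 488 higher genes, 228 were called higher in luminal cells too, and 117 had a smaller luminal difference in the same direction. Of the 275 lower genes, 47 were called lower in luminal cells too and 62 had a smaller luminal difference in the same direction. No gene was called in opposite directions in the lineages. The label depends on how luminal cells are grouped. With luminal progenitor-like and mature luminal-like cells taken apart and each held to the same condition (a ratio within the limits or a level under 10% of the basal one), 31 of the 115 higher genes and 59 of the 132 lower genes kept it. The genes named next were picked for this pattern by their size, so their values are a description. From 18 higher and 24 lower genes that had at least 50 CPM in the higher phase and were also called without cycling cells, the 12 with the largest ratio in each direction were taken. No value among them is a test of the difference.

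**Figure D1:**
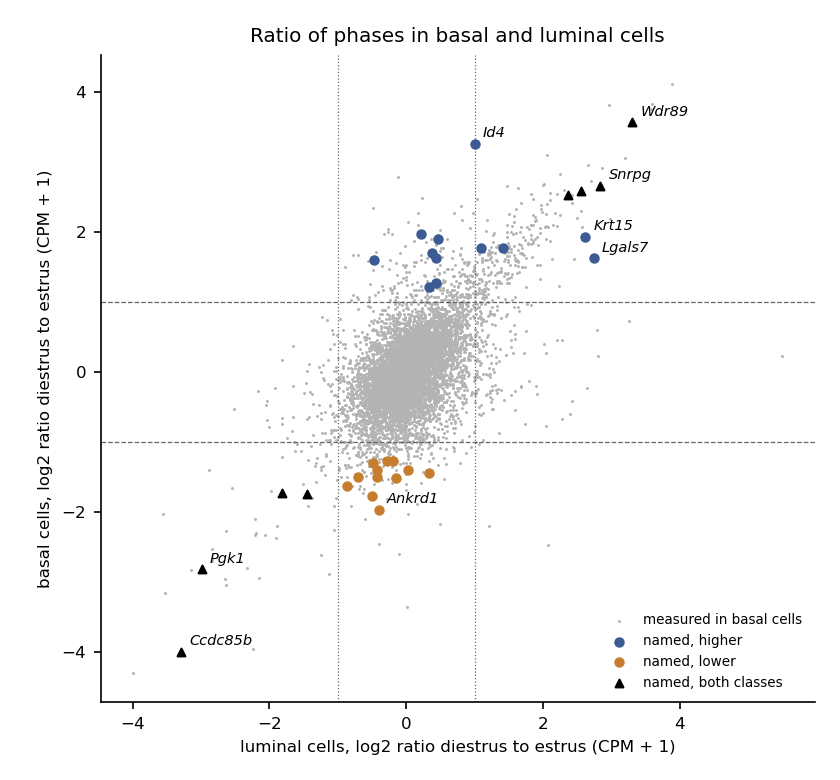
Each grey point is 1 of the 8651 genes measured in basal cells, placed by its log2 ratio of diestrus to estrus in luminal cells (x axis) and in basal cells (y axis), both on the CPM + 1 scale, and lines mark 2-fold. Most genes named as not seen in luminal cells lie above or below the middle of the plot (Id4 at 3.26 in basal cells), Krt15 and Lgals7 lie to the right at low luminal levels (2.62 and 2.74), and genes called in both lineages (triangles, Wdr89 and Ccdc85b) lie along the diagonal.

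Of the 12 higher genes, Racgap1, Cdk1, Tacc3, Birc5 and Pmf1 act in cell division and are described after the others, which are Id4, Krt15, Lgals1, Lgals7, Them5, Tnfrsf18 and Stk39. Id4, an inhibitor of basic helix-loop-helix transcription factors that is known as a regulator of mammary basal cells, had the highest ratio of the 12. It lies on chromosome 13 (48261228 to 48266026, mm10). Id4 had 107 counts in basal cells in estrus (24.8 CPM, exact Poisson interval 20.3 to 29.9) and 1027 in diestrus (246 CPM, 231 to 262). The log2 ratio was 3.26 (3.02 to 3.61), and it was 3.36 without cycling cells. After thinning, 2.53% of basal cells had a count for Id4 in estrus and 23.1% in diestrus, against 0.0738% and 0.0756% of luminal cells. In the full data 24.9% of the basal cells in diestrus had 2 or more counts of Id4, against 0.779% in estrus. The gene was thus present in more thinned cells, and at more counts per cell in the full data, where basal cells in diestrus were also deeper. Id1, Id2 and Id3, the other members of the family, had log2 ratios of 0.40, -0.29 and -0.81 and were not called.

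The promoters of Id4, Lgals7 and Ankrd1 are shown because the first 2 stand for higher genes with low luminal levels and Ankrd1, described below, had the lowest ratio of the 12 lower genes. Each runs 5′ to 3′ from 250 bases before to 50 bases after the start of the gene in RefSeq (GRCm38.p6). Capitals mark GGAATG or its reverse complement CATTCC, the letters that TEAD factors of the Hippo pathway are known to bind. Id4 lies on the plus strand (chr13:48260866-48261165), Lgals7 on the plus strand (chr7:28864136-28864435) and Ankrd1 on the minus strand (chr19:36119795-36120094).
Id4: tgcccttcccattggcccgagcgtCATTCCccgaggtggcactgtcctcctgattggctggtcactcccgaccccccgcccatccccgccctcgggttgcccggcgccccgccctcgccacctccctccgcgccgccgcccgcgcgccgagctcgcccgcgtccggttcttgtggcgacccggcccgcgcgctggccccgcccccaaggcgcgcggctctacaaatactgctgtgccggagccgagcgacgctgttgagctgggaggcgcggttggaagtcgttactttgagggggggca
Lgals7: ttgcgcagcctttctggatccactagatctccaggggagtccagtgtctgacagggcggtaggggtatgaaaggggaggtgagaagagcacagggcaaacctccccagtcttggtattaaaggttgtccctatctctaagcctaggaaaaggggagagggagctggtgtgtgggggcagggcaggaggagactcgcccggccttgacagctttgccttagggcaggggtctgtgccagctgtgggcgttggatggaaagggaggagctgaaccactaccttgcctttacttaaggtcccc
Ankrd1: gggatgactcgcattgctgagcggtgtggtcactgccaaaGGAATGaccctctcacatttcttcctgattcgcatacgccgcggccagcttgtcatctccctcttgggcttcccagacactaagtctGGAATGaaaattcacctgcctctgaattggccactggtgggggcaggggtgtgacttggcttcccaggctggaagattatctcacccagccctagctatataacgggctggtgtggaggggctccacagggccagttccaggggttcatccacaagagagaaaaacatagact
The Ankrd1 window held the motif at 2 places, the Id4 window at 1 and the Lgals7 window at 0. Promoters were found for 10 of the 12 higher genes and 10 of the 12 lower genes. GGAATG was present on either strand in 3 of the 10 higher promoters (Id4, Racgap1 and Pmf1) and 3 of the 10 lower promoters (Ankrd1, Scn7a and Prkci), against 14.6% of 27025 promoters. AGAACA, which forms part of the site of the progesterone, glucocorticoid and androgen receptors, was present in 0 and 1 (Rem2), against 19.0% of all promoters. CANNTG, the E-box of the helix-loop-helix factors that Id proteins inhibit, was present in 7 and 7 of the 10, against 72.1%. CTTTGA, the letters of TCF factors in Wnt signalling, was present in 3 and 1, against 16.2%, and the CArG box of serum response factor in 0 and 0, against 1.57%. These matches only describe the letters in the windows.

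Krt15, a type I keratin of basal and progenitor cells in several epithelia (chromosome 11), was at 337 CPM (320 to 355) in estrus and 1283 CPM (1249 to 1318) in diestrus, a log2 ratio of 1.93. Without cycling cells the ratio was 1.55. A count was present in 18.2% of thinned basal cells in estrus and 38.8% in diestrus, against 0.664% and 2.57% of luminal cells. The positive cells also held more of it, with a mean of 4.38 counts per positive cell in estrus and 10.5 in diestrus in the full data. The highest cell had 48 counts in estrus and 171 in diestrus. Basal cells in diestrus were deeper in the full data, and the part of depth in these counts per cell was not tested. The other keratins of the layer did not follow Krt15. Krt14 had a log2 ratio of -0.77, and Krt5 and Krt17, which are in the cell rule, had -0.42 and -0.26.

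A pair of galectins, which bind sugar chains on cell surfaces and matrix, showed the same pattern. Lgals1 (chromosome 15) went from 377 CPM (358 to 395) to 1274 CPM (1240 to 1308), a log2 ratio of 1.76, and from 37.9% to 56.5% of thinned basal cells. Luminal shares were 2.21% and 3.86%. Lgals7 (chromosome 7) went from 399 CPM (381 to 419) to 1227 CPM (1194 to 1261), a log2 ratio of 1.62, and from 28.3% to 57.2% of basal cells, against 0.812% and 3.56% of luminal cells. Both changes were called without cycling cells, at 1.32 and 1.66. The intervals of the phases did not overlap for either gene, which follows from the choice by fold at these counts and is no further support.

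The label of these genes as basal rests on their level and not on their direction. Id4, Krt15, Them5, Lgals1 and Lgals7 had luminal levels under 10% of the basal ones, but their luminal ratios were also above 0. The luminal log2 ratio was 2.62 for Krt15 (5.85 to 41.1 CPM), 2.74 for Lgals7 (7.28 to 54.2 CPM), 1.42 for Lgals1 (16.6 to 46.0 CPM), 1.09 for Them5 and above 0 for Id4 as well (0.316 to 1.64 CPM). Krt14, which was lower in basal cells, had a luminal log2 ratio of 2.04. The part of free RNA from basal cells in these luminal counts was not tested. The 7 basal genes of the rule summed to 60.7 CPM in luminal cells in estrus and 99.2 CPM in diestrus.

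Of the other higher genes, Them5, an acyl-CoA thioesterase of mitochondria, had 23.6 CPM in estrus and 82.2 CPM in diestrus (log2 ratio 1.76, 1.48 to 2.13). Tnfrsf18, the TNF receptor family member GITR, had 26.2 and 80.8 CPM (1.59, 1.31 to 1.95), and its share of thinned basal cells went from 2.29% to 9.35%. In luminal cells its share was 1.77% and 1.36%, with log2 ratios of 0.83 in progenitor-like and -0.75 in mature luminal-like cells. Stk39, a kinase that acts on ion cotransporters, had 23.6 and 58.3 CPM (1.27, 0.96 to 1.65).

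The 5 cell division genes had ratios above 0 in basal and in luminal progenitor-like cells and below 0 in mature luminal-like cells. Cdk1, the kinase that drives entry into mitosis, had 46.1 CPM in estrus and 173 CPM in diestrus in basal cells, a log2 ratio of 1.89 (1.68 to 2.14). Its log2 ratio was 1.72 in progenitor-like cells and -0.10 in mature luminal-like cells, and 0.47 over all luminal cells. Racgap1, which acts in the division of the cytoplasm, had ratios of 1.97 in basal, 1.05 in progenitor-like and -0.78 in mature luminal-like cells. Birc5 (survivin), a part of the chromosomal passenger complex, had 1.62, 1.29 and -0.29. Pmf1, of the kinetochore, had 1.21, 1.23 and -0.19, and Tacc3, of the mitotic spindle, had 1.70, 0.84 and -0.07. Their luminal value within 0.5 was thus a sum over luminal classes with opposite signs, and 4 of the 5 (Cdk1, Racgap1, Birc5 and Pmf1) were at least 2-fold higher in progenitor-like cells too. Without cycling cells the basal ratios were 1.38 for Cdk1, 1.74 for Racgap1, 1.01 for Birc5, 1.09 for Pmf1 and 1.93 for Tacc3. Passing 2-fold without cycling cells was a condition for naming, and Cdk1 and Birc5 are among the 10 genes of the cycling call. The values without cycling cells are therefore not independent of the removal.

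**Figure D2:**
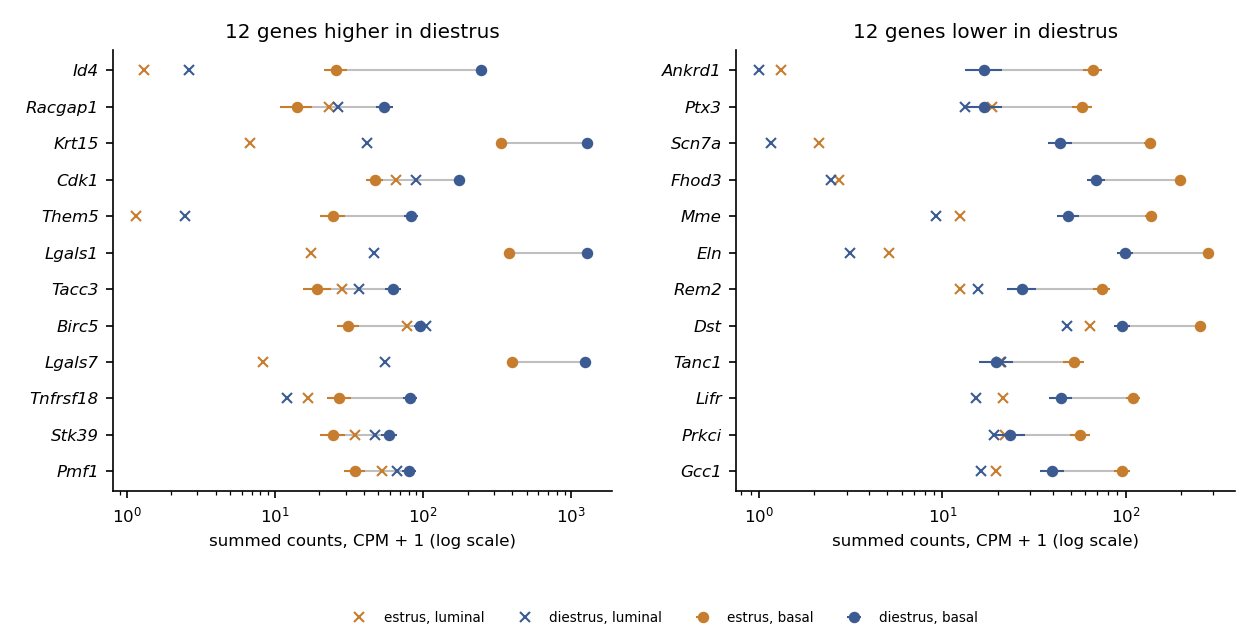
Points give the summed level of each named gene in basal cells of estrus and diestrus (CPM + 1, log scale) with the exact Poisson interval of its count, and crosses give the same level in luminal cells. Id4, Krt15, Lgals1, Lgals7 and Them5 lie far to the right of their luminal crosses, while Racgap1, Cdk1, Tacc3, Birc5 and Pmf1 lie near them.

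Of the 12 lower genes, Ankrd1 had the lowest ratio. Ankrd1, a nuclear ankyrin repeat protein that is a widely used target gene of the Hippo effector YAP (chromosome 19, 36111961 to 36120099), had 281 counts in estrus (65.1 CPM, 57.7 to 73.1) and 66 in diestrus (15.8 CPM, 12.2 to 20.1). Its log2 ratio was -1.97 (-2.45 to -1.65). A count was present in 5.89% of thinned basal cells in estrus and 1.69% in diestrus, against 0 of 1355 and 0 of 1322 luminal cells, which allow shares of up to 0.221% and 0.227% (3 cells of the total). Fhod3, a formin that organizes actin in muscle, went from 197 to 67.9 CPM (-1.52, -1.74 to -1.34) and from 27.4% to 12.5% of cells. Scn7a, a sodium channel of the membrane, went from 135 to 42.9 CPM (-1.63, -1.90 to -1.41) and from 19.5% to 8.06% of cells. In luminal cells both genes were at 1.74 CPM or less in both phases, and at most 0.378% of luminal cells had a count for either.

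Eln, which encodes elastin (chromosome 5, 134702593 to 134747323), had 279 CPM (264 to 295) in estrus and 98.3 CPM (89.0 to 108) in diestrus, a log2 ratio of -1.50. The share of thinned basal cells with a count was 31.6% and 16.2%, against 0.664% and 0.227% of luminal cells. Dst, a linker of keratin filaments to hemidesmosomes, went from 252 to 94.0 CPM (-1.41, -1.59 to -1.26) and from 31.2% to 13.9% of cells, against 8.04% and 6.66% of luminal cells. Ptx3, a secreted pentraxin of innate immunity, went from 56.7 to 15.8 CPM (-1.78). In luminal cells Ptx3 had log2 ratios of -1.52 in progenitor-like and 1.02 in mature luminal-like cells, so it was lower in progenitor-like cells as well. Mme, the membrane peptidase CD10 that marks myoepithelial cells, went from 136 to 47.7 CPM (-1.50), with -1.12 in progenitor-like and 0.11 in mature luminal-like cells. Lifr, the receptor of leukemia inhibitory factor, went from 108 to 43.4 CPM (-1.30), with -1.14 and -0.15 in the luminal classes.

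The remaining lower genes were Rem2, a small GTPase that acts on calcium channels (72.9 to 26.1 CPM, -1.45), Tanc1, a scaffold protein (51.2 to 18.7 CPM, -1.41), Prkci, an atypical protein kinase C of cell polarity (55.6 to 22.3 CPM, -1.28), and Gcc1, a Golgi protein (94.7 to 38.6 CPM, -1.27). Of the 3' end of Prkci, 24.9% was found in other genes, so its counts are less certain. With the luminal classes apart, 8 of the 12 lower genes (Ankrd1, Scn7a, Fhod3, Eln, Dst, Lifr, Prkci and Gcc1) and 5 of the 12 higher genes (Id4, Krt15, Them5, Lgals1 and Lgals7) kept the label of not seen in luminal cells. Lifr and Dst were lower in progenitor-like cells too (-1.14 and -0.79) and kept the label there by their level under 10% of the basal one. All 24 genes stayed past 2-fold in the same direction in the 11 settings that gave them a value, of which the removal of cycling cells was part of the choice.

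The named genes were then counted per cell. Of the 12 higher genes, a thinned basal cell had a median of 1 with a count in estrus and 2 in diestrus. Cells with none of them were 33.2% in estrus and 12.5% in diestrus, and cells with 3 or more were 7.69% and 40.1%. Without cycling cells the last shares were 5.76% and 29.5%. Of the 12 lower genes the median was 2 in estrus and 1 in diestrus, with none in 17.0% and 47.1% of cells and 3 or more in 32.9% and 7.66%. In luminal cells, 3 or more of the higher genes were found in 1.40% and 2.57% and 3 or more of the lower genes in 0.0738% and 0.151%. Since the genes were chosen for their difference, these shares show how it was distributed and not that it exists.

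**Figure D3:**
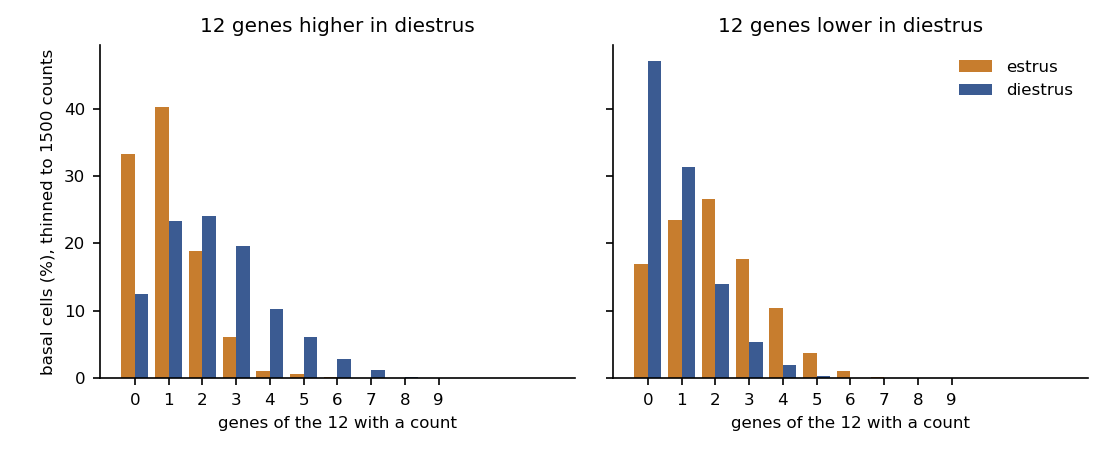
Bars give the share of basal cells (y axis, percent of cells thinned to 1500 counts) by how many of the 12 higher genes (left) or 12 lower genes (right) had a count. In diestrus the distribution of the higher genes is shifted to the right, with 40.1% of cells at 3 or more against 7.69% in estrus, and that of the lower genes to the left.

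Within diestrus, cells with and without Id4 were set side by side. Among the 232 thinned cells with a count for Id4, 40.9% (34.6% to 47.6%) had a count for Krt15, against 38.2% (34.7% to 41.7%) of the 773 cells without. Lgals7 was found in 59.5% and 56.5%, and Lgals1 in 49.1% (42.5% to 55.8%) and 58.7% (55.2% to 62.2%). Eln was found in 9.05% (5.69% to 13.5%) of cells with Id4 and 18.4% (15.7% to 21.3%) of cells without it. Oxtr was found in 12.5% (8.53% to 17.5%) and 22.1% (19.2% to 25.2%). The intervals, which cover counting error within 1 library, overlapped for Krt15, Lgals7 and Lgals1 and did not for Eln and Oxtr. Other lower genes had overlapping intervals, with Ankrd1 in 1.29% and 1.81% and Cdkn1a in 24.1% and 27.8% of cells. In estrus only 31 thinned cells had Id4, and the interval for Eln, 11.9% to 44.6%, held the value of the cells without it, 31.7%. Cells of 1 library share their source, so these shares describe this library.

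Gene groups were then compared as lists. For each the number of members called is to be read beside the 5.64% of all measured genes called higher and the 3.18% called lower, and the median beside 0.01, the median of all genes. Of 17 measured genes of smooth muscle and contraction, 0 were called higher and 4 lower, the median log2 ratio was -0.72, and 13 were below 0. In luminal cells the median of the 10 measured members was 0.07. Those called lower included Synpo2, of the Z-disc (52 and 17 counts, -1.36, and -0.91 with a pseudocount of 5 CPM), Mcam, an adhesion molecule of smooth muscle (-1.35), and Oxtr, the oxytocin receptor (282 to 128 CPM, -1.13). Oxtr was at -0.99 without cycling cells and -0.78 in thinned sums. Abundant members were lower by less than 2-fold, such as Tpm2 (4621 to 2867 CPM, -0.69), Csrp1 (2475 to 1387 CPM, -0.84) and Myh11 (553 to 329 CPM, -0.75). Actg2, a smooth muscle actin, was at 291 and 525 CPM, a log2 ratio of 0.85. The 7 basal genes of the rule, most of them contractile, summed to 31602 CPM in estrus and 25113 CPM in diestrus, and none of them was called. The pericyte markers, at 47.2 and 15.1 CPM, were lower with this group. Without the cells that had 3 or more of them its median was -0.72. Without cycling cells the median was -0.62.

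Cell cycle genes were mostly called higher. All 20 genes of G2 and M phase were called higher, with a median of 1.70, against a median of 0.26 and 1 called gene in luminal cells. The luminal value pools classes that differed. In progenitor-like and mature luminal-like cells the log2 ratios were 1.43 and -0.62 for Mki67 and 1.83 and 0.48 for Aurkb. They were 0.61 and -0.21 for Ube2c and 0.30 and -0.83 for Hmmr. Without cycling cells the basal median was 0.51 and 4 were called. The list shares Mki67, Top2a, Birc5, Cdk1, Ccnb2, Cenpf, Ube2c and Nusap1 with the cycling call, so this fall is partly built in. Mki67, the proliferation marker, went from 4.86 to 31.6 CPM (2.48), Top2a, which untangles DNA, from 19.5 to 68.3 CPM (1.76), and Ube2c, of the anaphase complex, from 78.0 to 287 CPM (1.86, and 0.40 without cycling cells). Of 19 genes of S phase, 14 were called higher, with a median of 1.27, and 11 of 19 were called higher in luminal cells, with a median of 1.14. Without cycling cells 12 of the S phase genes were called. Hells, a chromatin remodeller, went from 11.1 to 49.9 CPM (2.07) and Mcm3, of the replication helicase, from 95 to 324 counts (1.77). Of 12 measured cyclins D and E and CDK inhibitors, 4 were called higher (Ccnd1, Ccnd2, Ccne2 and Cdkn2c) and 1 lower. Cdkn2c, a CDK inhibitor, was at 1.28, and at 0.39 without cycling cells. Ccnd1, cyclin D1, went from 41.0 to 173 CPM (2.05, 1.84 to 2.32) and from 2.94% to 14.5% of thinned basal cells, against 12.7% and 22.9% of luminal cells. Its log2 ratio was 2.23 without cycling cells and 0.93 in luminal cells. Ccnd2, cyclin D2, which the study chose on these cells, went from 106 to 216 CPM (1.02), and it was 0.88 with plain totals. Cdkn1a, the CDK inhibitor p21, was lower, from 534 to 227 CPM (-1.23, -1.35 to -1.13) and from 50.4% to 27.0% of cells. In luminal cells Cdkn1a had a log2 ratio of -0.46 and shares of 27.8% and 21.9%. The ratio was -0.93 in progenitor-like and -0.20 in mature luminal-like cells.

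**Figure D4:**
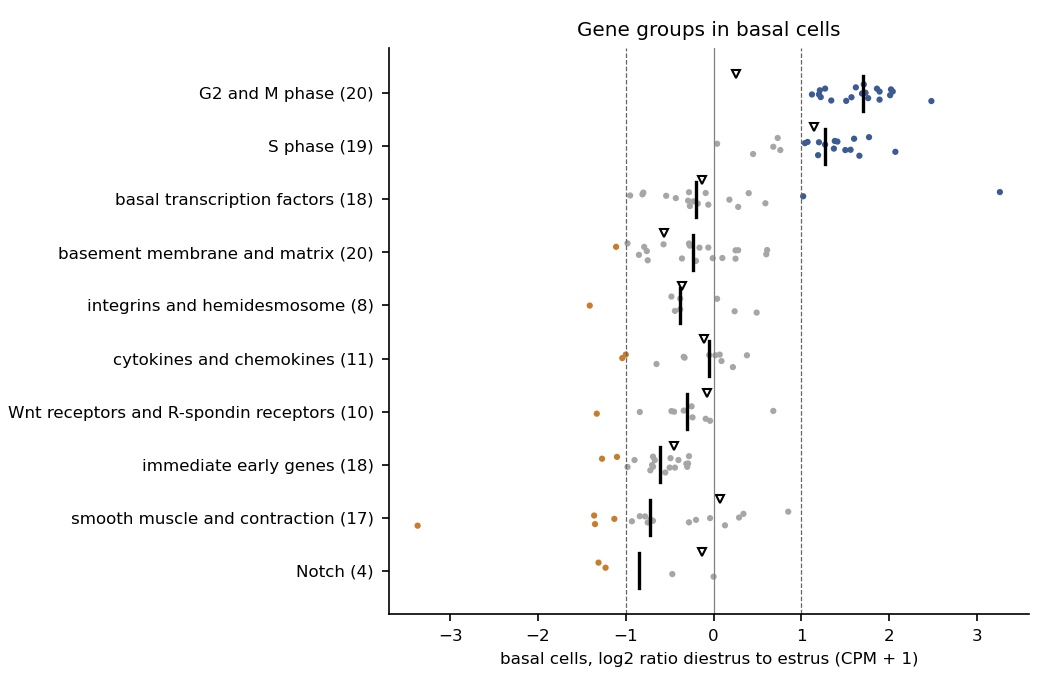
Each point is a measured gene of a list, placed by its log2 ratio of diestrus to estrus in basal cells (x axis, CPM + 1 scale), with blue for at least 2-fold higher, orange for at least 2-fold lower and the number of measured genes in brackets. Bars mark the basal median and open triangles the luminal median, which part most, among the 10 lists drawn, for G2 and M phase (1.70 and 0.26) and for smooth muscle and contraction (-0.72 and 0.07). The luminal median pools progenitor-like and mature luminal-like cells, which differed for genes of G2 and M phase.

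Of 18 measured transcription factors of the basal layer, 2 were called higher, Id4 and Sox10, a factor of neural crest and mammary stem cells (16.2 to 33.8 CPM, 1.02), which was at 0.87 with plain totals and without cycling cells. Trp63, the p63 gene that maintains basal identity, had 85.5 and 82.0 CPM, and Snai2 (Slug) 35.2 and 33.1 CPM, with intervals of the ratio that included 0 for both. Runx1 had 233 and 120 CPM, a log2 ratio of -0.95.

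In the Wnt pathway, 5 of 15 ligands were measured and none was called. Wnt6 had 82.9 and 112 CPM (0.43, 0.23 to 0.64). Wnt10a had 50.3 and 98.8 CPM (0.96, 0.73 to 1.22), and 0.49 without cycling cells. Wnt10b had 0 counts in estrus and 1 in diestrus. Of 10 measured receptors, 1 was called lower, the R-spondin receptor Lgr5 (23.9 to 8.87 CPM, -1.33, -2.01 to -0.87), while Lgr6 had 40.8 and 39.6 CPM. The study picked Wnt6, Wnt10 genes, Id4 and Ccnd2 on these same cells, so their direction is not independent evidence. Of 7 measured target genes, Ccnd1 was called higher, and Myc, a driver of growth, had 522 and 269 CPM (-0.95). Axin2, a direct target, had 11 and 14 counts and was not measured under the limit of 50. In Notch signalling, 2 of 4 measured genes were called lower. These were the ligand Dll1 (185 to 78.4 CPM, -1.23, -1.43 to -1.05), found in 22.4% and 10.8% of thinned basal cells and 0.0738% and 0.151% of luminal cells, and the feedback inhibitor Nrarp (18.8 to 6.95 CPM, -1.31, and -0.99 with a pseudocount of 5 CPM). In luminal cells Dll1 had 20 counts, under the limit of 50, so its log2 ratio of 0.39 there is not a measured change. Nrarp had a log2 ratio of 0.78 over all luminal cells. This value pools progenitor-like cells, where Nrarp was more than 2-fold higher, and mature luminal-like cells, where it was at -0.72. Of the 11 measured stem cell genes of the basal layer, Ngfr, the neurotrophin receptor p75, was called higher (5.09 to 28.3 CPM, 2.26), and Dll1 and Lgr5 lower. Procr, Tspan8 and Bcl11b were not called.

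Among secreted factors and matrix, 1 of the genes described next was called higher, Fst. Of 11 measured cytokines and chemokines, Cxcl14 was called lower (4760 to 2375 CPM, just past 2-fold) and so was Csf3 (14.8 to 6.71 CPM, -1.04, and -0.68 in thinned sums). Cxcl14 lies at the limit, with -0.84 without cycling cells. Of 20 genes of the basement membrane and matrix, 1 was called lower, Postn, periostin (723 to 334 CPM, -1.11, and -0.99 without cycling cells), and the median was -0.24 against -0.57 in luminal cells. Fibroblast collagens were lower in the luminal sums, with Col3a1 at 111 and 13.6 CPM and Col1a1 at 30.2 and 9.17 CPM, and their part in the luminal median was not tested. Col4a1, a chain of collagen IV, had 155 and 236 CPM (0.60). Of 11 proteases and inhibitors, 2 were called lower, among them Timp3, an inhibitor of matrix metalloproteinases (204 to 90.6 CPM, -1.16). Col17a1, of the hemidesmosome, had 135 and 67.9 CPM (-0.98). Of 14 genes of TGF-beta and BMP signalling, Fst, follistatin, an inhibitor of activin, was called higher (248 to 519 CPM, 1.06), with 0.91 under plain totals. Over all luminal cells Fst was at -0.55, with 0.90 in progenitor-like and -0.36 in mature luminal-like cells. It was found in 16.2% and 29.2% of thinned basal cells and 1.85% and 1.44% of luminal cells. Tgfb1 (24.8 to 5.27 CPM, -2.04) was called lower in basal cells and was at -3.56 in luminal cells. Its receptor Tgfbr1 (24.3 to 11.3 CPM, -1.05) was called lower too, but was at -0.80 without cycling cells and -0.43 in thinned sums. Of 10 measured genes of FGF and IGF signalling, Igfbp6, a binding protein of IGF2, was called lower (31.3 to 3.36 CPM, -2.89). Over all luminal cells Igfbp6 was at -1.13, but at 0.00 in progenitor-like and -0.09 in mature luminal-like cells, so neither class showed the fall. Fgf1 was called lower (40 to 15 counts, -1.16, and -0.73 with a pseudocount of 5 CPM), and Igfbp2 and Igfbp5 had log2 ratios of 0.02 and 0.01. Of the 5 measured EGF and neuregulin genes, the 4 of the RANK pathway and the 7 of the circadian clock, 0 were called.

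Of 6 measured steroid and nuclear receptors, 1 was called lower, the thyroid hormone receptor Thra (40.3 to 16.8 CPM, -1.22, and -0.67 in thinned sums). All 6 were below 0, with a median of -0.52. Of 8 measured interferon response genes, Bst2 (tetherin) was called higher (26 and 59 counts, 1.11), and it was at 0.61 without cycling cells and 0.50 in thinned sums. Of 8 measured antigen presentation genes, Cd74 was called higher (2.37), and the median was 0.56 against -0.33 in luminal cells. Of 22 measured genes of glutathione and antioxidant defence, 3 were called lower. These were the glutathione transferases Gstp1 (141 to 14.9 CPM, -3.16) and Gstm1 (220 to 62.1 CPM, -1.81) and the heme oxygenase Hmox1 (77.1 to 33.3 CPM, -1.19). Of the 3' end of Gstp1, 91.6% is found in other genes, so its counts are uncertain. Hmox1 was at -0.88 without cycling cells, which left 2 called lower. The luminal log2 ratios of the 3 genes were -3.53, -1.03 and -0.65, so the direction was the same in both lineages.

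Among stress genes, all 18 immediate early genes were below 0 in basal cells, with a median of -0.61. Of these, 2 were called lower (Gadd45b, -1.27, and Jund, -1.10, and -0.95 in thinned sums). Over all luminal cells the median was -0.45, with 0 called. In progenitor-like cells Gadd45b and Jund were at -1.44 and -1.41, past 2-fold, and in mature luminal-like cells at -0.05 and -0.59. Fos had 8046 and 4887 CPM (-0.72) and Junb 8963 and 4531 CPM (-0.98). Of 12 heat shock genes, Hspa1a, Hspa1b and Hspb1 were called lower and Hspe1 higher, though 72.4% of the 3' end of Hspe1 is found in other genes. Hspa1a was at 653 and 193 CPM in basal cells (-1.75) and -1.45 in luminal cells. Hspb1 was at -1.08, and at -0.90 without cycling cells. These genes are known to respond to tissue dissociation, and their part in the other differences was not tested.

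A further set of differences was common to the lineages. Ribosomal protein genes took 16.4% of basal counts in estrus and 23.2% in diestrus. Of 90 measured, 40 were called higher in basal cells (median 0.81) and 40 in luminal cells (median 0.77). Of 89 nuclear genes of the respiratory chain, 37 were called higher in basal cells (median 0.70), and 25 of 90 in luminal cells (median 0.45). The genes named as called in both lineages were Wdr89, which encodes a WD repeat protein (63.9 to 769 CPM in basal cells, log2 ratio 3.57, luminal 3.30), the splicing factor Snrpg (2.66 and 2.84), the transcription factor Cebpb (32.0 to 196 CPM, 2.58 and 2.56) and the ATP synthase component Usmg5 (2.53 and 2.37). On the lower side were Ccdc85b (211 to 12.2 CPM, -4.00 and -3.29), the glycolytic enzyme Pgk1 (108 to 14.4 CPM, -2.82 and -2.99), Lamtor3 (-1.74 and -1.82) and Hspa1a. Of the other 13 measured glycolysis and hypoxia genes, only Adm, adrenomedullin, was called (59.1 to 24.2 CPM, -1.25), and Gapdh had a log2 ratio of 0.49. Of the 228 higher genes that were called in both lineages, 83 were ribosomal protein, predicted or multi-copy genes, in which reads can be split between near-identical copies.

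By detection, 191 genes had a count in at least 10 percentage points more of the thinned basal cells in diestrus (2.21% of the measured genes) and 159 in at least 10 points fewer (1.84%). The largest gains by the naming rule were Wdr89 (9.08% to 62.1% of basal cells), Cox6c (27.3% to 66.9%) and Cox8a (34.2% to 72.4%), the last 2 being subunits of cytochrome c oxidase. Of the 3' end of Cox6c, 35.9% is found in other genes. The luminal share of Wdr89 reached 67.0%, and those of the other two went from 24.4% to 57.5% and from 50.8% to 76.6%. The largest losses were Myl12b, a myosin light chain (44.3% to 17.3%), Maff, a small Maf factor (74.0% to 47.5%), and Ppp1r15a, a stress response gene (58.4% to 32.2%). The luminal shares of these went from 53.7% to 37.4%, from 35.0% to 24.7% and from 32.5% to 23.1%.

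The puberty library, from mice at 5 weeks of age, was not used by the comparison and gave a level for each gene in 1053 basal cells. Id4 was at 11.8 CPM there, below both adult phases. Krt15 was at 858 CPM, Lgals7 at 879 CPM and Lgals1 at 487 CPM, between the phases. Ankrd1 was at 2.37 CPM, Fhod3 at 31.9 CPM and Scn7a at 32.5 CPM, below both phases. The other named lower genes did not share this. Mme, Eln (132 CPM), Rem2, Dst (144 CPM), Tanc1, Lifr, Prkci and Gcc1 lay between the phases, and Ptx3 (79.9 CPM) above both. The puberty level lay nearer estrus for 71 of the 115 higher genes not seen in luminal cells and for 46 of the 132 lower genes. These are counts of genes, while over all measured genes the share was 46.3%. Among the higher genes the puberty level was below estrus for 14 and above diestrus for 13. Among the lower genes it was below diestrus for 47 and above estrus for 11. Age, animals and library cannot be told apart in this level.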

How the data were processed

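Libraries of sorted mammary epithelial cells were made by the authors with the 10x Chromium 3' chemistry and sequenced on a NextSeq 500, and the deposited tables were made with Cell Ranger 2.0 on mm10. The deposited values are molecule counts per gene and cell barcode, without normalization. Estrus had 2729 barcodes (10962454 counts) and diestrus had 2439 (11868593 counts), each with 27998 genes. Barcodes were used as called by the authors, and no caller for doublets was run. The rule leaves out cells with several genes of both lineages but keeps cells with a few, so doublets can remain.

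Counts were summed per class and phase and scaled by TMM with estrus as reference, in Python 3.11.15 with numpy 2.4.6 and scipy 1.17.1. The pseudocount was 1 CPM and the limit 50 counts. With 1 library per phase no test was made. Count intervals are exact Poisson, ratio intervals conditional binomial (without the pseudocount) and share intervals Clopper-Pearson, all at 95%. Molecules of 1 library give counting error only. Cells were thinned without replacement (seed 1). The functions were tested on simulated counts. Luminal progenitor-like cells had 2 or more of the 5 progenitor genes and at most 1 of the 6 mature genes, and mature luminal-like cells the reverse. Gene positions and shared 3' ends (GENCODE M21, GRCm38) were found for 27645 of 27998 genes. Predicted, mitochondrial and ribosomal protein genes, the 18 genes of the cell rule and genes with at least 50% of the 3' end in other genes were counted but not named, except as called members of a list. Besides the 12 genes in each direction, the rule named 4 per direction called in both lineages, 3 per direction by detection and, in each list, up to 4 called members and the most abundant one not called. Further list members in the text were chosen after their values were seen. The members and the gene lists were chosen with earlier results of these data known. Of the second puberty table, 5387 barcodes were in the first, and it was not used. Some members of the lists are counted but not reported here by name.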

Additional observations from a re-analysis of the deposited data

How the results depend on the processing

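Each phase had 1 library, so differences between mice, preparation and sequencing cannot be told apart from the phase, and low genes are limited by depth. No paired analysis was possible because each phase had 1 library and no test was made. The values to be compared are 488 higher and 275 lower genes, 115 and 132 of them not seen in luminal cells, and 191 and 159 genes by detection. Of the 111 genes followed through the settings, no called one changed sign. Medians of lists near 0 did, such as that of Wnt target genes (0.06, and -0.08 with plain totals), of glutathione genes (0.01, and -0.13 with plain totals), of EGF and neuregulin genes (0.36, and -0.08 without cycling cells) and of glycolysis genes (-0.11, and 0.02 without cycling cells). Plain totals gave 440 lower genes. A pseudocount of 5 CPM gave 162 lower, 72 of them not seen in luminal cells. A limit of 20 counts gave 416 lower and 204 not seen in luminal cells, a limit of 200 counts 310 higher and 130 lower with 47 and 47 not seen, and no limit 582 lower with 244 higher and 332 lower not seen. Sums of thinned cells gave 427 lower and 222 not seen. Without cycling cells 59 higher genes were not seen in luminal cells, of which 29 were shared with the 115. With the luminal classes apart 37 higher and 68 lower genes were not seen, and with luminal ratios between -0.25 and 0.25 these were 64 and 87. By detection, thinning to 2500 counts gave 267 losses, and no thinning 877 gains and 93 losses, which follows the difference in depth. Fewer or more genes pass a higher or lower count limit by construction, and for the other settings the cause was not tested. Leaving out ribosomal protein, mitochondrial, predicted and multi-copy genes, and cells with 3 or more pericyte markers, were settings chosen after seeing the data. The first left 380 higher and 246 lower genes.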
